A study of Homo sapiens with 6 samples.

Results

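The methionine cycle and its links to folate and cysteine were described in HepaRG cells through 10 genes: MAT1A, MAT2A, GNMT, BHMT, BHMT2, AHCY, CBS, CTH, MTHFD1 and SHMT1. They were chosen by symbol, with earlier results of these data known. All 10 were found among the 16659 genes of the deposited table. HepaRG is an established human liver tumour line, which the labels describe as a hepatic stem cell line. RNA was sequenced from 3 libraries of cells labelled as a functional knockout of the pregnane X receptor (PXR, a drug-sensing nuclear receptor encoded by NR1I2) and from 3 libraries of wild-type cells, named as the control; no drug was given to either group. The sources used here give neither the way the receptor was disrupted nor whether the knockout is 1 clone. The profiles were made in triplicate with no word on separate cultures, so a p-value covers only the spread among these libraries, which may be technical.

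Methionine is turned into S-adenosylmethionine (SAM), the methyl donor of most methylation reactions. After the methyl group is handed over, the remaining S-adenosylhomocysteine is split to homocysteine, which is either methylated back to methionine or passed through transsulfuration to cysteine. The folate cycle supplies methyl groups from serine and glycine, and the liver supplies them from betaine as well. Adult hepatocytes are known for MAT1A, GNMT and BHMT, while MAT2A is the form of SAM synthetase used by most other tissues and by growing cells.

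Levels are given as scaled CPM, reads scaled to a common library size by the authors. Estimated depths were 28154914 to 33393110 reads in the knockout libraries and 11359209 to 20945994 reads in the wild-type libraries, so every knockout library was the deeper. NR1I2 itself stood at 13.1, 13.4 and 14.3 CPM in the knockout, against 8.24, 7.04 and 7.60 CPM in wild type (limma adjusted p = 6.8e-07), a level that does not check whether working receptor protein is made. Of 12 hepatocyte markers 11 were measured and all 11 rose, with a summed level of 43040 to 44235 CPM in the knockout and 2244 to 2318 CPM in wild type. The knockout sum was mostly ALB, at 32829 CPM in the knockout and 867 CPM in wild type. AHSG and CYP2E1 passed the filter on low values, above 1 CPM in at least 3 libraries, only through the knockout libraries. Of all tested genes 40.3% were called higher and 39.6% lower, and the counts of each marker list stand against those shares. Of 8 proliferation markers 7 fell and 1 rose, with summed levels of 419 to 434 CPM in the knockout and 922 to 931 CPM in wild type. Bile duct markers, 4 of 7 measured, were split, with 2 higher (KRT19 and SOX9) and 2 lower (SPP1 and KRT7), and summed to 373 to 399 CPM in the knockout and 489 to 515 CPM in wild type. Stellate and fibroblast markers, 7 of 8 measured, had 4 higher and 3 lower (DES, PDGFRB and LRAT); their sum of 405 to 421 CPM in the knockout and 107 to 111 CPM in wild type was mostly DCN, at 335 CPM in the knockout and 63.1 CPM in wild type. Leukocyte markers, 3 of 7 measured, had 2 higher and 1 lower and summed to 22.7 to 24.1 CPM in the knockout and 13.6 to 16.8 CPM in wild type. Of the 2 endothelial markers measured out of 6, KDR rose, at 218 CPM in the knockout and 53.3 CPM in wild type, and PECAM1 fell, at 0.35 CPM in the knockout and 1.58 CPM in wild type; their sum was 215 to 222 CPM in the knockout and 54.8 to 55.1 CPM in wild type. The part these markers and the depth have in the values below was not tested.

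In the knockout, 6 of the genes rose (MAT1A, GNMT, BHMT, BHMT2, CTH and SHMT1) and 4 fell (MAT2A, AHCY, CBS and MTHFD1). Across the table, limma called 79.9% of 16219 tested genes at an adjusted p under 0.05, with 40.3% higher and 39.6% lower in the knockout, so that a call alone does not set these genes apart. At least 2-fold changes past the threshold were found upward at MAT1A, GNMT and BHMT, against 12.6% of tested genes, and downward at none of the 10, against 10.1%. The groups of libraries did not overlap at any of the 10 genes, as at 80.8% of all tested genes. GNMT and BHMT passed the filter on low values only through the knockout libraries. The size of the changes differed widely: on the log2(scaled CPM + 0.5) scale they ran from 2.52 for GNMT to -0.85 for AHCY, with a median of 0.60 against 0.014 for all tested genes. Because the 10 genes were chosen with earlier results of these data known, these medians are a description and not a test. GNMT, MAT1A and BHMT had larger absolute changes than 95.3%, 93.0% and 87.8% of tested genes, whereas that of CBS was larger than that of only 15.8%. GNMT and BHMT, below 1 CPM in every wild-type library, could be tested only if they were higher in the knockout. Their direction was thus set by the filter, and nothing is drawn from their ranks. In bulk RNA, fewer cells of a type and less RNA per cell cannot be told apart. The median change of the 64 to 165 other tested genes within 10 Mb of each gene lay between -0.11 and 0.16. A median over that many genes tends to lie near that of all tested genes, so no comparison with the gene's own change is drawn from it.

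**Figure D1:**
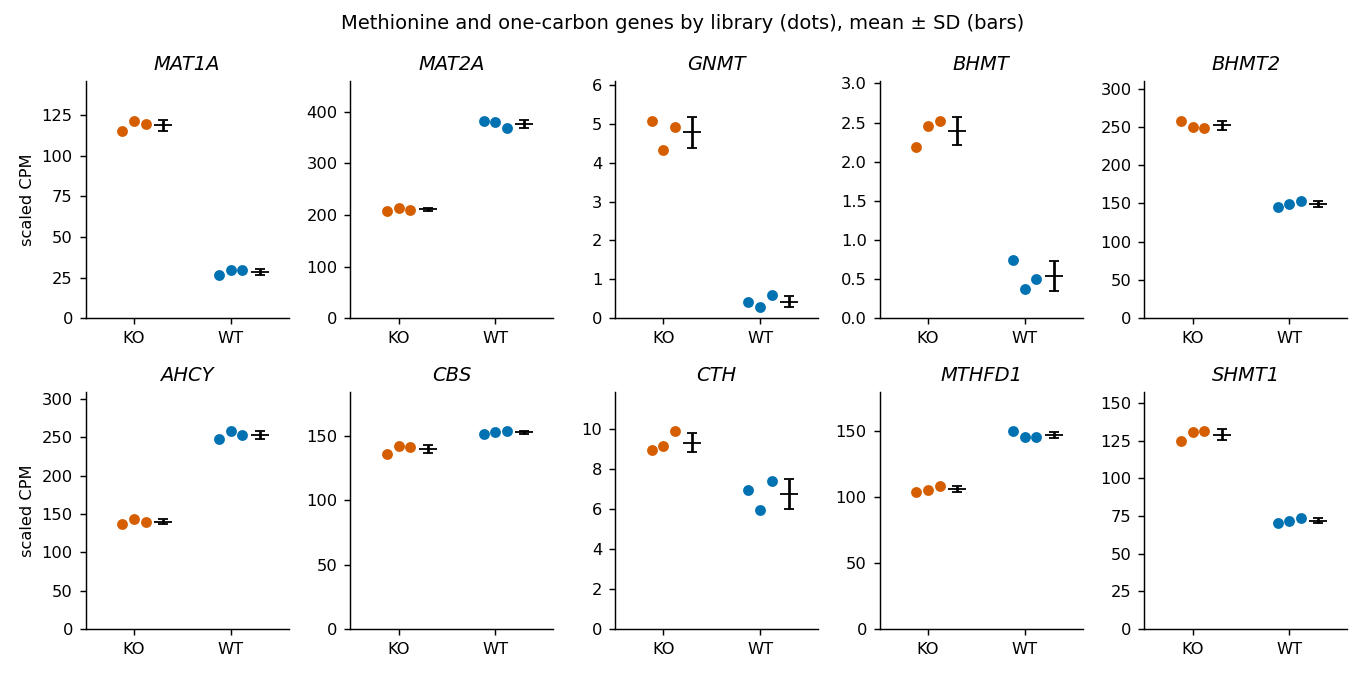
Level of each of the 10 genes in scaled CPM (vertical axis, from 0) in the 3 knockout (KO, orange) and 3 wild-type (WT, blue) libraries, with the mean and SD in black. The groups separate in every panel, by the least for CBS (140.2 ± 3.38 CPM in the knockout and 153 ± 1.04 CPM in wild type) and with the largest ratio for GNMT.

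The genes for SAM synthetase moved in opposite directions. MAT1A (chromosome 10, 80271820 to 80289684, minus strand, GRCh38), the form of adult liver, was at 115, 122 and 119 CPM in the knockout, against 26.6, 29.5 and 29.5 CPM in wild type. All 3 knockout libraries lay about 4 times above every wild-type library, with means of 119 ± 3.33 CPM in the knockout and 28.5 ± 1.66 CPM in wild type (SD, n = 3 each). The log2 change was 2.04 ± 0.044 (SE), with a limma adjusted p of 2.4e-14. MAT2A (chromosome 2, 85539165 to 85545280, plus strand), the form of most other tissues, was at 208, 214 and 210 CPM in the knockout, against 383, 379 and 368 CPM in wild type. Every knockout library was lower than every wild-type library, a log2 change of -0.84 ± 0.026 (limma adjusted p = 1.1e-12). GGCX, which overlaps MAT2A on the opposite strand, averaged 283 CPM in the knockout and 138 CPM in wild type.

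The MAT1A level divided by the MAT2A level was 0.554, 0.569 and 0.567 in the knockout libraries and 0.0696, 0.0779 and 0.0801 in the wild-type libraries. This ratio was 7.44 times higher in the knockout, and gene length cancels in that comparison. MAT2A nevertheless remained the higher of the pair per length. Divided by the length of the annotated principal transcript, MAT2A averaged 74.8 CPM per kb in the knockout and 134 CPM per kb in wild type, while MAT1A averaged 34.8 CPM per kb in the knockout and 8.37 CPM per kb in wild type. On that per-length scale MAT1A made up 31.4%, 32.0% and 31.9% of the MAT1A and MAT2A total in the knockout, against 5.44%, 6.05% and 6.21% in wild type. The sum of the levels of both genes was lower in the knockout, at 329.5 ± 6.33 CPM, than in wild type, at 405 ± 6.81 CPM (SD, n = 3 each). MAT2B, which encodes the regulatory subunit that binds the MAT2A product, was at 68.6 CPM in the knockout and 60.0 CPM in wild type on average; its log2 change of 0.19 (limma adjusted p = 0.00011) was no longer called with columns scaled to equal sums (0.055, adjusted p = 0.16).

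**Figure D2:**
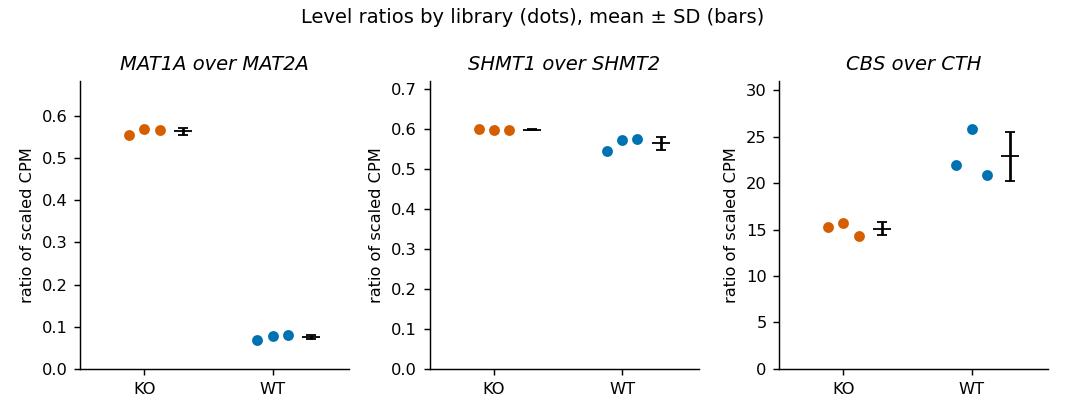
Ratio of the levels of MAT1A over MAT2A, SHMT1 over SHMT2 and CBS over CTH in each knockout (KO, orange) and wild-type (WT, blue) library, with the mean and SD in black. The MAT1A over MAT2A ratio averaged 0.564 in the knockout and 0.0759 in wild type, while SHMT1 over SHMT2 differed little between the groups.

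The coding sequences of MAT1A and MAT2A were 72.5% identical over 1185 aligned bases, and their estimated reads were whole numbers in every library, within 0.01 of a read, with no sign of reads divided between genes. Their promoters differ in base composition. The 250 bases before the RefSeq start are shown for both (GRCh38.p14, 5′ to 3′ on the gene's strand), because these are the isozymes that changed in opposite directions; capitals mark the CCAAT box, the motif CCAAT searched on both strands, which reads ATTGG on the opposite strand.
MAT1A, chr10:80289659-80289908, minus strand: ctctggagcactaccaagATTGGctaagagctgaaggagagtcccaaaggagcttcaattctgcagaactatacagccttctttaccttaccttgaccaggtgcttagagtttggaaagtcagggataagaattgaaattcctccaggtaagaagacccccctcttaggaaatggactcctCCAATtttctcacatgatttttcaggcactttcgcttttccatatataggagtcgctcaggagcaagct
MAT2A, chr2:85538918-85539167, plus strand: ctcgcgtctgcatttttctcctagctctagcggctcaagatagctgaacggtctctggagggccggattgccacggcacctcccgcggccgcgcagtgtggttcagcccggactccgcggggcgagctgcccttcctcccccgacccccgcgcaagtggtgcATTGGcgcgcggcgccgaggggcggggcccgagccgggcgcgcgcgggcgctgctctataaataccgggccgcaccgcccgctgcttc
The MAT1A window held 2 CpG dinucleotides and 44.8% G and C, and the MAT2A window 34 CpG and 71.6%. The median of 35114 RefSeq promoter windows was 11 CpG, and 14.7% of windows held fewer CpG than MAT1A and 93.2% fewer than MAT2A.

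A CCAAT box was found in a window of 7 of the 10 genes, and in 32.0% of all promoter windows. The antioxidant response element TGACNNNGC was found at 2 genes, BHMT2 and CBS, against 10.9% of all windows. The HNF1 core GTTAAT, the HNF4 core CAAAGTC and the C/EBP-ATF core TGCATCA, motifs of liver and amino acid stress factors, matched in no window of the 10 genes, against 6.23%, 2.91% and 2.16% of all windows. AHCY and CBS have 3 RefSeq starts each and so 3 windows, and a match or its absence is a description of these letters only.

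GNMT (chromosome 6, 42960758 to 42963880, plus strand) encodes glycine N-methyltransferase, an abundant liver enzyme that uses SAM to make sarcosine from glycine. Its level was 5.08, 4.33 and 4.92 CPM in the knockout, against 0.412, 0.287 and 0.585 CPM in wild type. The gene was low in both groups, and the wild-type values rested on 5, 6 and 13 estimated reads where the knockout libraries had 165, 117 and 158. The means of 4.78 ± 0.39 CPM in the knockout and 0.43 ± 0.15 CPM in wild type (SD, n = 3 each) gave an 11.2-fold ratio and a log2 change of 2.52 ± 0.15 (limma adjusted p = 1.2e-09), which ran over the alternatives from 2.02 with a pseudocount of 1 to 3.45 with voom weights. Its 3′ end overlaps PEX6 on the opposite strand, a gene at 96.2 CPM in the knockout and 131 CPM in wild type; whether counting used the strand is not given in the sources used here.

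AHCY (chromosome 20, 34280268 to 34311802, minus strand) encodes the hydrolase that splits S-adenosylhomocysteine, the product of every SAM-dependent methyl transfer. It stood at 137, 143 and 139 CPM in the knockout, against 248, 258 and 253 CPM in wild type. Its fall, a log2 change of -0.85 ± 0.028 (limma adjusted p = 1.9e-12), was close in size to that of MAT2A. AHCYL1, a related gene whose product binds the IP3 receptor, fell as well, with means of 259 CPM in the knockout and 405 CPM in wild type (log2 change -0.64).

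**Figure D3:**
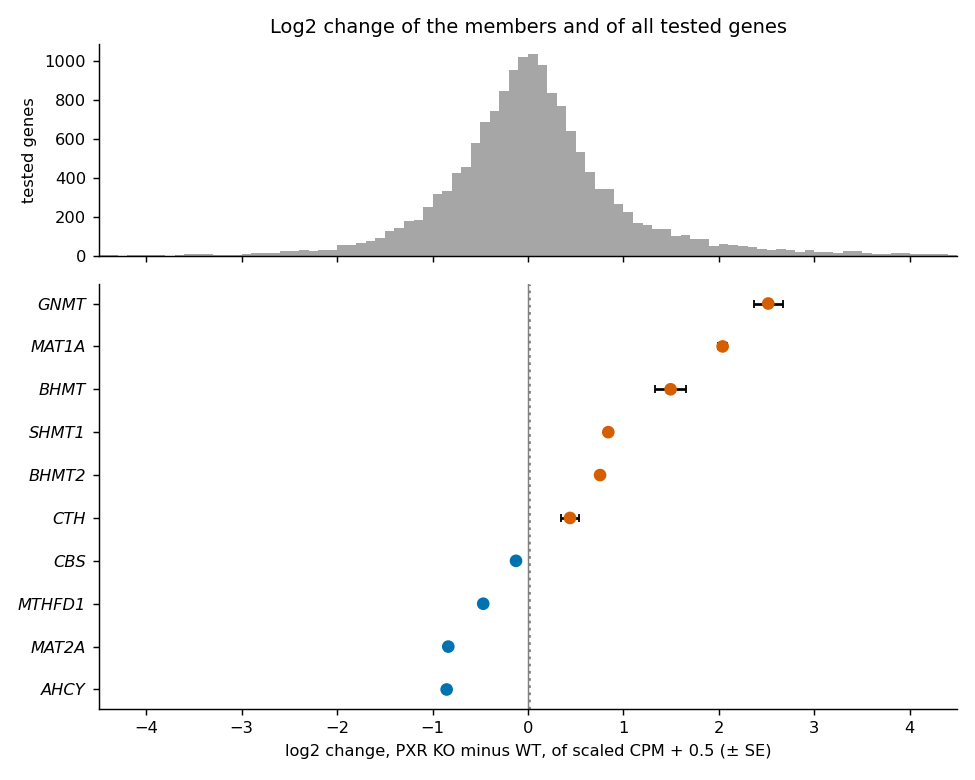
Upper panel, histogram of the log2 change (knockout minus wild type) of all tested genes; the axis is limited to 4.5 on each side, beyond which 162 genes are not drawn. Lower panel, log2 change of the 10 genes with its SE, those higher in the knockout in orange and those lower in blue; the dotted line is the median of all tested genes, 0.014. GNMT, MAT1A and BHMT sit in the right tail, and MAT2A and AHCY lie together at -0.84 and -0.85. GNMT and BHMT passed the filter on low values only through the knockout libraries.

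Homocysteine is methylated by betaine through BHMT, by S-methylmethionine through BHMT2 and by methyl-folate through methionine synthase, the product of MTR. BHMT2 (chromosome 5, 79069717 to 79089466, plus strand) was at 258, 249 and 248 CPM in the knockout, against 145, 150 and 153 CPM in wild type. Every knockout library was above every wild-type library, with a log2 change of 0.75 ± 0.029 (limma adjusted p = 1.1e-11). BHMT (chromosome 5, 79111779 to 79132290, plus strand), its neighbour, was far lower, at 2.19, 2.45 and 2.53 CPM in the knockout, against 0.743, 0.369 and 0.497 CPM in wild type. The log2 change of BHMT was 1.49 ± 0.16 (limma adjusted p = 7.8e-07), and ran over the alternatives from 1.15 with a pseudocount of 1 to 2.20 with voom weights. Its wild-type values rested on 9.01, 7.71 and 11.04 estimated reads, which are not whole numbers and so include reads divided between genes. Estimated reads of BHMT2 were not whole either, up to 0.44 of a read away, nor were those of CBS, MTHFD1 and SHMT1. The coding sequences of BHMT and BHMT2 were 70.4% identical, against 72.5% for MAT1A and MAT2A, whose reads were whole. Which genes share the reads of BHMT was not tested, so its level is uncertain.

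Per kb of transcript, BHMT2 averaged 123 CPM in the knockout and 72.7 CPM in wild type, and BHMT 0.96 CPM in the knockout and 0.21 CPM in wild type. BHMT2 was thus the betaine-homocysteine methyltransferase family member with nearly all the RNA in both groups. MTR fell, with a mean of 103 CPM in the knockout and 148 CPM in wild type (log2 change -0.52 ± 0.029, limma adjusted p = 5.8e-10). PEMT, which uses SAM to make phosphatidylcholine, averaged 9.24 CPM in the knockout and 9.34 CPM in wild type and did not pass the test (log2 change -0.018, limma adjusted p = 0.89). MTRR, which reactivates methionine synthase, had a log2 change of 0.22 that was not called with equal column sums (0.088, adjusted p = 0.071).

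The windows before the starts of BHMT2 and BHMT are printed because these neighbours rose together from very different levels (RefSeq, GRCh38.p14, 250 bases, 5′ to 3′); capitals mark the antioxidant response element, which is present in BHMT2 only.
BHMT2, chr5:79069517-79069766, plus strand: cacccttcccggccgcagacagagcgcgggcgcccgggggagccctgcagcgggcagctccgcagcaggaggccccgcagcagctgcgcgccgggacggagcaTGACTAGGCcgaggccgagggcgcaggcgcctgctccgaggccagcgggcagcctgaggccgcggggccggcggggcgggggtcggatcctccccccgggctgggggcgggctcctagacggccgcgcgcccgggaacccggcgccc
BHMT, chr5:79111559-79111808, plus strand: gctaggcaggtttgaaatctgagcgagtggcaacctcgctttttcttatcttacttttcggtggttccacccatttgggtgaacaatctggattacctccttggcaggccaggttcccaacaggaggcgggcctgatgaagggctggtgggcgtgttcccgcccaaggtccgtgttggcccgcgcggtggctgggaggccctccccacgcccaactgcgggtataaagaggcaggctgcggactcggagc
The BHMT2 window held 34 CpG and 81.6% G and C, and the BHMT window 14 CpG and 60.4%.

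DMGDH, which encodes dimethylglycine dehydrogenase and oxidises the product that BHMT leaves from betaine, lies across both genes on the opposite strand. It was at 69.4, 63.8 and 63.6 CPM in the knockout, against 34.0, 35.8 and 35.3 CPM in wild type, a log2 change of 0.90 ± 0.044 (limma adjusted p = 1.4e-10). The other genes that start within 250 kb of BHMT, ARSB and JMY, fell by 0.33 and 0.29 on the log2 scale. Of 18 other tested genes that start within 2 Mb, 2 rose, 10 fell and 6 stayed short of the threshold (median -0.21). Among all tested genes, 40.3% were called higher and 39.6% lower. DMGDH overlaps the span of the 2 genes, so reads may be mixed between them unless strand was used in counting. The estimated reads of DMGDH summed to whole numbers, 6020 in the knockout and 1944 in wild type. Such sums do not tell from which strand the reads came. Whether its reads were mixed with those of BHMT and BHMT2 was not tested.

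**Figure D4:**
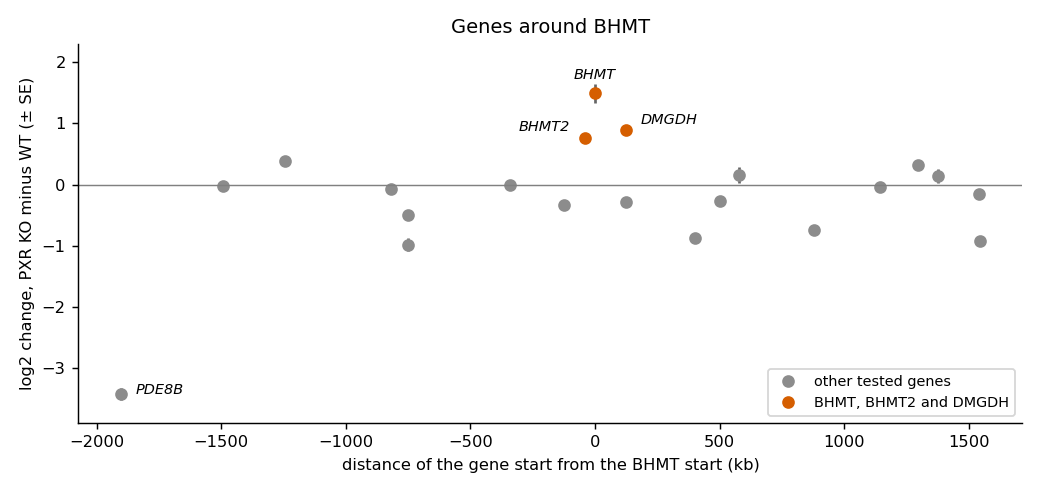
Log2 change (knockout minus wild type, ± SE) of tested genes on chromosome 5 against the distance of their start from the BHMT start in kb. BHMT, BHMT2 and DMGDH (orange) lie at 1.49, 0.75 and 0.90, above all 18 other genes (grey), the highest of which is at 0.39. BHMT passed the filter on low values only through the knockout libraries, and its level is uncertain. DMGDH overlaps BHMT and BHMT2 on the opposite strand, so their values may not be independent. PDE8B, labelled after its value was seen, is the lowest at -3.43.

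Of the enzymes of transsulfuration, CBS fell slightly and CTH rose. CBS (chromosome 21, 43053191 to 43076943, minus strand), cystathionine beta-synthase, was at 136, 143 and 142 CPM in the knockout, against 152, 153 and 154 CPM in wild type. The log2 change was -0.13 ± 0.028 (limma adjusted p = 0.00096), the smallest of the 10. With columns scaled to equal sums, which moved the median of all genes by -0.13, it was -0.26. CBSL, a copy in the reference genome whose coding sequence was 99.9% identical, took 6.28 CPM in the knockout and 5.10 CPM in wild type on average, and the split of reads between the copies is uncertain. The sum of CBS and CBSL was 146 ± 3.14 CPM in the knockout and 158 ± 1.28 CPM in wild type (SD, n = 3 each), still without overlap. CTH (chromosome 1, 70411218 to 70439851, plus strand), cystathionine gamma-lyase, was at 8.93, 9.11 and 9.86 CPM in the knockout, against 6.92, 5.94 and 7.38 CPM in wild type. Its log2 change was 0.44 ± 0.098 (limma adjusted p = 0.00088), with 246 to 317 estimated reads in a knockout library and 84 to 164 in a wild-type library. The level of CBS over that of CTH was 15.1 ± 0.67 in the knockout and 22.9 ± 2.61 in wild type (SD, n = 3 each).

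In the folate cycle of the cytosol, SHMT1 rose and MTHFD1 fell. SHMT1 (chromosome 17, 18327860 to 18363563, minus strand) encodes the serine hydroxymethyltransferase that moves a carbon from serine to folate. It was at 125, 131 and 131 CPM in the knockout, against 70.4, 71.5 and 73.6 CPM in wild type, a log2 change of 0.84 ± 0.033 (limma adjusted p = 1.0e-11). SHMT2, its mitochondrial counterpart, rose by 0.76 ± 0.030 on the log2 scale, to 216 CPM in the knockout against 128 CPM in wild type. The SHMT1 over SHMT2 ratio therefore changed by a factor of only 1.06, with 0.597 to 0.5996 in the knockout and 0.544 to 0.574 in wild type. MTHFD1 (chromosome 14, 64388031 to 64463457, plus strand) encodes the enzyme that interconverts folate forms for purine and thymidylate synthesis. It was at 104, 106 and 108 CPM in the knockout, against 149.9, 146 and 145 CPM in wild type, a log2 change of -0.47 ± 0.029 (limma adjusted p = 2.2e-09). ZBTB25 overlaps MTHFD1, and SMCR8 overlaps SHMT1, on the opposite strand.

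Per kb of transcript, the order of the 10 genes in the knockout was BHMT2 (123 CPM per kb), MAT2A (74.8), AHCY (65.3), CBS (53.8), SHMT1 (52.4), MAT1A (34.8), MTHFD1 (33.8), CTH (5.15), GNMT (4.46) and BHMT (0.96). The libraries of CBS and SHMT1, and those of MAT1A and MTHFD1, overlapped in the knockout. In wild type the order was MAT2A (134), AHCY (118), BHMT2 (72.7), CBS (58.7), MTHFD1 (46.9), SHMT1 (29.2), MAT1A (8.37), CTH (3.74), GNMT (0.40) and BHMT (0.21), with overlap of the libraries of GNMT and BHMT alone. BHMT2 thus led the per-length order in the knockout in place of MAT2A in wild type.

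Other genes of the pathway were taken from lists by role. All 74 that were measured could be tested: 40 rose, 28 fell and 6 stayed short of the threshold, and the median log2 change was 0.20. The share called was 91.9%, against the 79.9% of all tested genes given above. Of all tested genes 40.3% were higher and 39.6% lower, and the counts of each list below stand against those shares. The lists, too, were chosen with earlier results of these data known, so the shares are a description and not a test. With columns scaled to equal sums 33 rose and 30 fell, and the median was 0.066. Both the methionine and folate lists were split. Of 16 genes of the methionine cycle, methyl transfer and methionine synthesis, 7 rose and 7 fell, with a median of -0.0060, whose sign turned with voom weights (0.0076), without knockout replicate 1 (0.053) and without wild-type replicate 1 (0.044); with equal column sums 3 rose and 8 fell. The rises were led by GATM and NNMT. GATM and GAMT make creatine, a large use of SAM, and rose to 732 CPM and 126 CPM in the knockout against 118 CPM and 39.9 CPM in wild type. NNMT, which methylates nicotinamide with SAM, was at 483 ± 3.66 CPM in the knockout and 82.1 ± 0.91 CPM in wild type (log2 change 2.55 ± 0.025). TCN2, a vitamin B12 carrier, had the largest fall of the list (log2 change -0.67).

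Of 18 folate genes, 7 rose and 8 fell, with a median of 0.055 that turned to -0.081 with equal column sums. FOLR1, a folate receptor, was at 45.5, 49.9 and 50.2 CPM in the knockout, against 2.72, 2.39 and 2.92 CPM in wild type (log2 change 3.95 ± 0.083, limma adjusted p = 1.7e-14). The proton-coupled folate transporter SLC46A1 rose by 1.40, whereas the reduced folate carrier SLC19A1 fell by 1.29 on the log2 scale. ALDH1L1, which oxidises formyl-folate in liver, rose by 0.79. The purine synthesis genes GART and ATIC fell by 1.13 and 0.89, while TYMS, for thymidylate synthase, rose by 0.68. MTHFD2, a mitochondrial folate enzyme, was low at 0.44, 0.45 and 0.25 CPM in the knockout, against 1.24, 1.12 and 1.26 CPM in wild type (log2 change -0.97). It passed the filter on low values only through the wild-type libraries.

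The list of betaine, sarcosine and glycine breakdown had the highest median, 0.83, with 7 of 9 genes higher and 2 lower in the knockout. PIPOX and SARDH both oxidise sarcosine, the product of GNMT. PIPOX was at 76.4, 78.3 and 77.1 CPM in the knockout, against 2.67, 3.44 and 2.08 CPM in wild type (log2 change 4.61 ± 0.12, limma adjusted p = 9.7e-14). SARDH was at 9.12, 9.37 and 10.3 CPM in the knockout, against 0.082, 0.24 and 0.045 CPM in wild type, where the 3 libraries held 7 estimated reads in all. It is counted among the 7 higher genes but passed the filter on low values only through the knockout libraries. Its log2 change of 4.03 ran over the alternatives from 3.24 with a pseudocount of 1 to 6.21 with voom weights. CHDH and ALDH7A1, which make betaine from choline, rose by 0.54 and 0.29. In the glycine cleavage system GLDC rose by 2.60 and DLD by 0.83, while AMT and GCSH fell by 1.31 and 0.44 on the log2 scale.

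**Figure D5:**
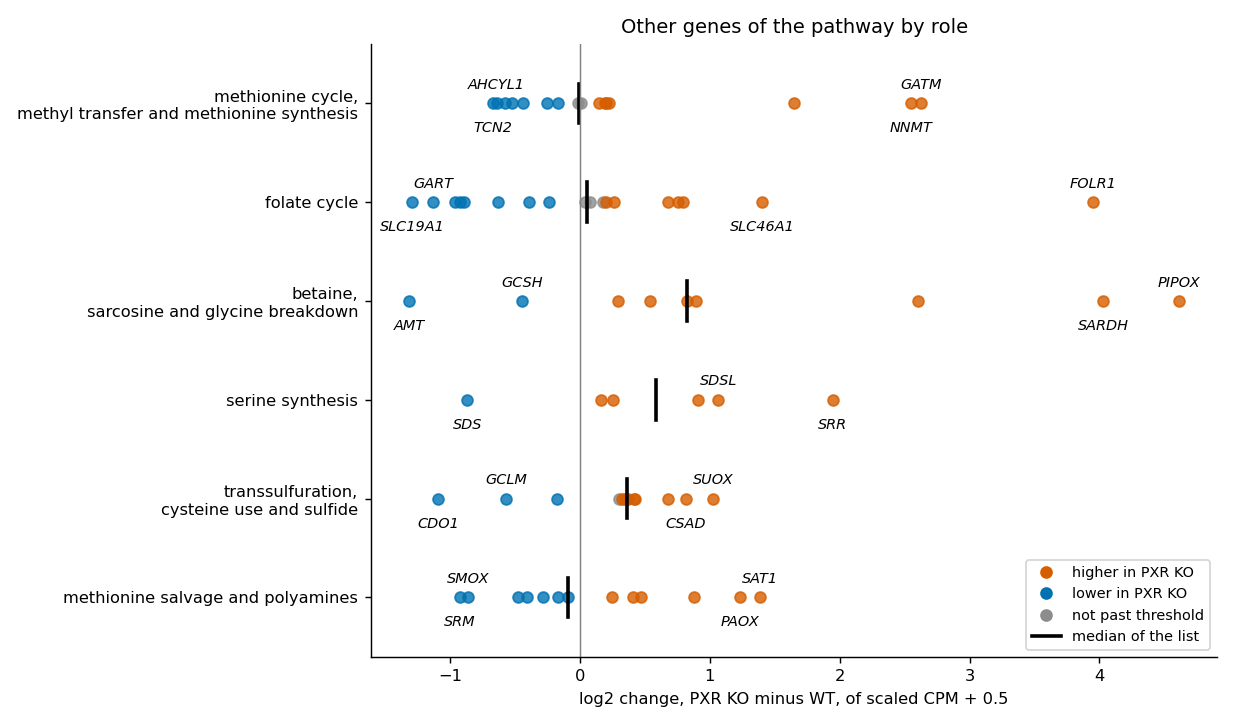
Log2 change (knockout minus wild type) of the 74 other pathway genes, 1 dot each, in 6 lists by role; orange and blue dots passed the test as higher or lower, grey dots did not, and the black bar is the list's median. The largest rises in the main setting are those of PIPOX, SARDH and FOLR1, and the betaine, sarcosine and glycine list has its median at 0.83. SARDH passed the filter on low values only through the knockout libraries, and its rank depends on the setting.

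Genes of serine synthesis and use rose at 5 of 6 members and 1 fell (median 0.58). PSPH, the last enzyme of serine synthesis, rose by 0.91, PHGDH and PSAT1 had smaller changes of 0.25 and 0.16, and SRR, serine racemase, rose by 1.95. The call of PSAT1 was lost with equal column sums (0.024, adjusted p = 0.60), and that of PHGDH with equal sums without small RNA genes (0.0997, adjusted p = 0.079). Of 12 genes of cysteine and sulfide metabolism, 8 rose and 3 fell (median 0.36, or 0.22 with equal column sums). SUOX, sulfite oxidase, rose by 1.03 and CSAD, of taurine synthesis, by 0.81. CDO1, which starts cysteine oxidation, fell by 1.09. The subunits of glutamate-cysteine ligase, the first step of glutathione synthesis, diverged, GCLC rising by 0.32 and GCLM falling by 0.57 on the log2 scale.

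Among 13 genes of methionine salvage and polyamines, 6 rose and 7 fell (median -0.094, or -0.23 with equal column sums and -0.20 with quantile normalization). The genes that consume SAM for polyamines fell: AMD1, which decarboxylates SAM, averaged 91.7 CPM in the knockout and 128 CPM in wild type, and SRM, spermidine synthase, 23.6 CPM in the knockout and 45.3 CPM in wild type. SAT1, which acetylates polyamines for breakdown or export, averaged 294 CPM in the knockout and 112 CPM in wild type, and PAOX, a polyamine oxidase, rose by 1.23, while SMOX, spermine oxidase, fell by 0.86 on the log2 scale.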

How the data were processed

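Libraries came from a kit that keeps strand, read from both ends, per the labels. Tools named in the submitters' processing notes are FastQC, Bowtie2, Trim Galore, limma and edgeR, with build hg38; versions and the strand setting of counting are not given. RSEM, which divides shared reads between genes, stands in the sample titles. The authors deposited 1 table of a normalized signal, named for log2 CPM but linear (scaled CPM); low values are multiples of 0.01 of a read, from which depths were estimated. Intervals on such reads would cover counting error only.

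From 16673 rows, 14 repeats of a gene identifier were left out; 16608 matched GENCODE 29, the source of coordinates and lengths. Genes above 1 CPM in at least 3 libraries were tested on log2(scaled CPM + 0.5) with limma 3.58.1 in R 4.3.3 (group model, mean-variance trend, two-sided), Benjamini-Hochberg adjusted over 16219 genes with a threshold of 0.05, after a test on simulated data. Replicate pairs differed by more than sampling noise on average (mean chi-square per gene 2.27 to 9.99). The median per gene was 0.64 to 0.90, and whether a typical gene exceeded sampling noise was not tested. Each library counted once. All 10 genes, up to 2 rises and 2 falls per list, genes near BHMT and partners of the 10 genes were named; HNF4A, FTCD and ALDH1L2 are not analysed here. Members and lists were chosen with earlier results of these data known. Values of some other pathway genes are not reported here.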

Additional observations from a re-analysis of the deposited data

How the results depend on the processing

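All 10 genes kept their direction and their call in all 15 alternatives, 150 of 150 values: pseudocounts of 0.1 and 1, no filter, equal column sums over all genes or over all but small RNA genes, quantile normalization, limma without a trend, voom weights, the replicate block and leaving out each of the 6 libraries. Equal sums moved the median of all genes by -0.13 and, without small RNA genes, by -0.15. The changes of the members shifted downward as well, CBS from -0.13 to -0.26 and -0.28, and CTH from 0.44 to 0.31 and 0.29. The split of all calls was 6534 higher and 6426 lower, and 5260 and 7913 with equal sums without small RNA genes. Leave-one-out changes ran from 2.40 to 2.64 for GNMT, 1.37 to 1.63 for BHMT, 0.36 to 0.50 for CTH and -0.14 to -0.11 for CBS. With a pseudocount of 1 the knockout minus wild-type difference of the log2 ratio of BHMT over BHMT2 was 0.40 in place of 1.46, and that difference for BHMT over MTR was 1.67 in place of 2.74, as the pseudocount exceeds the wild-type level of BHMT. Same-numbered libraries did not deviate together (correlations -0.061 to 0.025), so the numbers were not taken as pairs; with the replicate block 12916 genes were called against 12960, and all 10 members. CBSL was called with voom weights, with the block and without wild-type replicate 1 (adjusted p = 0.028, 0.042 and 0.015) and not otherwise. PEMT, not called in any of the 15, had a log2 change of -0.018 that turned to 0.00065 with voom weights, 0.091 without knockout replicate 1 and 0.058 without wild-type replicate 1; leave-one-out values ran from -0.097 to 0.091. Depth limits GNMT, BHMT and SARDH in wild type.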
